A study of Caenorhabditis elegans with 32 samples.

Results

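The borders of H3K9me2 domains were the 500-bp windows lying just outside continuous stretches of H3K9me2 in early embryos of the nematode Caenorhabditis elegans. The level of a mark in a window was E, the log2 ratio of immunoprecipitated (IP) to input reads after scaling each library to the mean nuclear read total and adding 2 to both counts, so that 0 means as many scaled reads in IP as in input. E is thus relative to the total of each library, and a change shared by all windows does not show in it. A domain was a run of at least 5 neighbouring windows with a mean H3K9me2 E of at least 1 and at least 10 scaled input reads, as means over the wild-type (WT) libraries at 20 °C. The 2 windows on each side of a domain were border windows where their mean E at 20 °C was under 1. This gave 856 domains with 6531 inside windows, and 2866 distinct border windows among 200551 nuclear windows. H3K9me2 at 20 °C therefore chose the border windows, and its level there is given as a description only. H3K27ac was not used to choose them.

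Methylation of histone H3 on lysine 9 marks heterochromatin, which in the worm is rich in repeats and silent genes, lies mostly on the chromosome arms and is held at the nuclear periphery. MET-2, the worm homolog of SETDB1, is the enzyme to which most H3K9me2 is attributed. H3K27ac is the opposite kind of mark, found at active promoters and enhancers, so a domain border is the place where a silenced and an active chromatin state can meet.

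The series asked how MET-2 and its catalytic activity bear on histone acetylation and H3K9me2, with ChIP-seq of early embryos collected before the bean stage. H3K27ac was measured in 4 groups of 3 IP and 3 input libraries each. These were WT (the N2 Bristol strain), met-2Δ (the deletion allele met-2(n4256) on chromosome III) and met-2-CD (met-2(gw1660), in which CRISPR editing changed the active site of the SET domain), all at 20 °C, and WT exposed to 37 °C (HS). For H3K9me2 there were WT libraries only, 2 IP and 2 input at 20 °C and as many from embryos exposed to 37 °C. The labels give 1 h at 37 °C for both marks. For H3K27ac the study's text gives a shorter exposure in one place and the labelled one in another. Each mutant is a single strain and each library is an average over all cells of whole embryos, so a mark present in more cells and a higher level per cell cannot be told apart. The labels call the replicates independent biological replicates, and p-values measure the spread between them.

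Some libraries stood apart. The input of H3K9me2 replicate 1 at 20 °C held only 6671338 nuclear reads against 85333594 in replicate 2, and its IP correlated with that of replicate 2 with a Pearson r of 0.680 across windows, against 0.898 between the HS replicates. Among the H3K27ac libraries, HS replicate 2 followed H3K9me2 more closely than the others. Across windows its E had an r of 0.342 with H3K9me2 E at 20 °C, against 0.188 and 0.171 in the other HS replicates, and its IP held a mean of 165 scaled reads per domain window against 133 and 128. Replicate 3 of met-2-CD had lower E over all classes of windows, with a border mean of -0.28 against -0.09 and -0.08. The 12 H3K27ac IP libraries held 19327992 to 36470940 reads and replicate IPs correlated with r between 0.862 and 0.949. The 2 windows of chromosome III between 8376567 and 8377566 had 0 input reads in all met-2Δ libraries and 80 to 171 per library and window elsewhere, which checks the labels.

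Domains were short and so were the spaces between many of them. Their median length was 6 windows (3000 bp), 288 had exactly 5 windows and the longest had 53. Of 3424 flanking positions at the 1712 domain ends, 2988 qualified as borders, 346 had an E of at least 1 and 90 lay inside another domain. A border window was shared by 2 domains in 122 cases. The position directly next to the domain supplied 1696 members and the next position 1292. Border windows followed the domains to the autosome arms, the outer parts when each autosome is cut into 3 equal parts, which held 2689 of them (93.8%) against 94.1% of domain windows and 54.9% of all nuclear windows. Chromosome III carried the most borders (711) and X the fewest (138), with 616 on I, 535 on II, 409 on IV and 457 on V. Of the 2866 border windows, 2820 passed an H3K27ac input minimum of 10 scaled reads and entered the window-wise tests.

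H3K9me2 fell off within 1 window of the domain end and was lower still some windows further out, with a small rise between. At 20 °C the border mean E was -0.24 in replicate 1 and 0.39 in replicate 2, whereas the domain inside had 2.02 and 1.54. The rest of the genome, meaning the windows past the input minimum that were neither border nor inside, had -0.98 and -0.26. Border windows therefore lay between the inside and the rest of the genome in both replicates, and replicate 1 spread the 3 classes more widely than replicate 2. The step from inside to border was 2.25 in replicate 1 and 1.16 in replicate 2, and the rule that took E of at least 1 inside and under 1 at the border fixes its direction.

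When the domains were chosen on 1 replicate and read in the other, a step was still measured. Domains chosen on replicate 1 alone (1158 domains) had a step of 0.91 in replicate 2, and those chosen on replicate 2 alone (699 domains) had a step of 1.56 in replicate 1. At 37 °C, where no value had been used to choose windows, these held-out steps ranged from 0.63 to 0.78. Single ends varied more. Over the 1696 ends with a border window next to the domain, the last inside window exceeded its neighbour by a median of 1.58 and 0.70 in the 20 °C replicates and by 0.52 and 0.51 in the HS replicates. The inside window was the higher one at 98.1% and 91.5% of ends at 20 °C and at 80.2% and 76.7% at 37 °C.

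**Figure D1:**
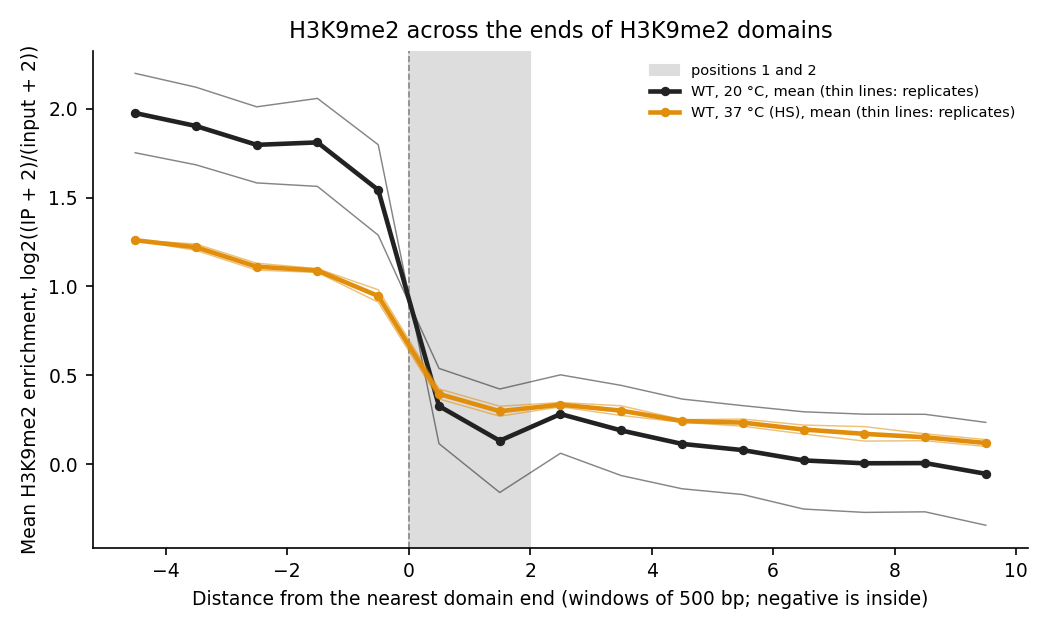
Mean H3K9me2 E (vertical axis, log2 of IP over input) against the distance from the domain end in 500-bp windows (horizontal axis, negative inside), for each WT library at 20 °C and 37 °C. All windows at a distance are drawn, including flanking windows with an E of at least 1, so the first 2 positions outside hold more than the border windows. Between the last inside and the first outside window the mean fell from 1.54 to 0.33 at 20 °C and from 0.95 to 0.40 at 37 °C.

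By distance, the 20 °C mean was 1.81 in the window before last inside a domain, 1.54 in the last, 0.33 in the first outside and 0.13 in the next. It was 0.28 at 3 windows out and reached -0.05 at 10 windows (5000 bp), where the replicates had -0.34 and 0.23, each still above its own value for the rest of the genome. The same order of positions was seen at 37 °C with a smaller step, from 0.95 in the last inside window to 0.40 in the first outside and 0.30 in the next. After exposure to 37 °C the border mean was 0.25 and 0.31 in the 2 replicates, within the range of the 20 °C replicates. The inside mean was 1.08 and 1.12, below both 20 °C replicates, and the rest of the genome had 0.01 and 0.20, above both. The rule took high 20 °C values for the inside and left lower ones to the rest, so part of this contrast is built in. Scaling to equal totals also means that a smaller share of reads inside goes with a larger share elsewhere. The paper reports less H3K9me2 after heat by western blot and immunofluorescence, and E cannot show such a common loss. A higher E in the rest of the genome is therefore no measure of a gain in H3K9me2 there. Domains chosen on 20 °C replicate 1 had an inside mean of 1.18 in the held-out replicate 2, against 0.95 and 1.05 at 37 °C. Those chosen on replicate 2 had 1.496 in the held-out replicate 1, against 0.99 and 0.94. The step from inside to border was 0.84 and 0.81. The border level averaged 0.08 ± 0.44 (SD, n = 2) at 20 °C and 0.28 ± 0.05 (SD, n = 2) at 37 °C, a difference within the spread of the 20 °C replicates. This depended on the scaling. With mitochondrial reads kept in the totals, which also gave a larger set of 4595 borders, the border mean was 0.11 ± 0.18 at 20 °C and 0.83 ± 0.25 at 37 °C (SD, n = 2 each), a difference larger than that spread. Input reads per domain window were themselves uneven between the H3K9me2 libraries, with means of 327 and 163 at 20 °C and 291 and 376 at 37 °C against 137 to 143 in the H3K27ac inputs, and their part in these levels was not tested.

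The threshold of E = 1 cut a continuous range of values. The border windows closest to it from below were on chromosome III at 2897091 (E 0.9986), on II at 2781002 (0.9984) and on X at 16890165 (0.9983), each given by its start. Domain windows just above it lay on IV at 3299330 (1.0002), on I at 2321992 (1.0004) and on II at 13419956 (1.0006). In single libraries many border windows crossed the line, with E of at least 1 in 13.8% and 15.2% of them at 20 °C and in 11.1% and 20.5% at 37 °C.

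The 3 steepest ends showed how uneven reads enter such a drop. On chromosome V the last inside window (19611892 to 19612391) had a mean E of 2.77 at 20 °C and its neighbour (19612392 to 19612891) had -1.47, and the fall was present at 37 °C too, from 1.54 to -1.21. The end on X fell from 2.69 to -1.49 between the windows starting at 291236 and 291736, but the border window there held 2393 scaled input reads in replicate 1 against 42.2 in the inside window. On IV the border window from 2575333 to 2575832 had an E of -2.53 with 0 and 1.95 scaled IP reads, so few that its level carries little information.

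H3K27ac was higher at the borders than inside the domains in WT embryos. The WT border mean was -0.20, -0.15 and -0.12 in the 3 replicates, against -0.38, -0.29 and -0.26 inside the domains. Every replicate was thus higher at the border, by 0.15 ± 0.02 (SD, n = 3). The difference was 0.12 ± 0.02 (SD, n = 3) in met-2Δ. The met-2-CD pairs gave 0.12 ± 0.06 (SD, n = 3), again higher at the border in all replicates. In HS the replicates disagreed, with 0.09, -0.23 and 0.09, the negative value coming from replicate 2. Over the 12 pairs of IP and input the border exceeded the inside by 0.09 on average and in 11 pairs (exact sign-flip permutation test, two-sided, p = 0.0161, adjusted over 2 tests p = 0.0161). HS replicate 2 was the only pair below 0, and without it the mean was 0.12 in 11 of 11 pairs. Leaving it out fixed the same exact test at p = 0.000977, the smallest that 11 pairs can give. This p is therefore no added support. The call was lost when domains were called at a threshold of 0.5 (0.06, p = 0.0732), in runs of at least 3 windows (0.06, p = 0.0708), on 20 °C replicate 1 alone (0.07, p = 0.0532) or with mitochondrial reads kept in the totals (0.06, p = 0.0703), all by the same exact permutation test.

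**Figure D2:**
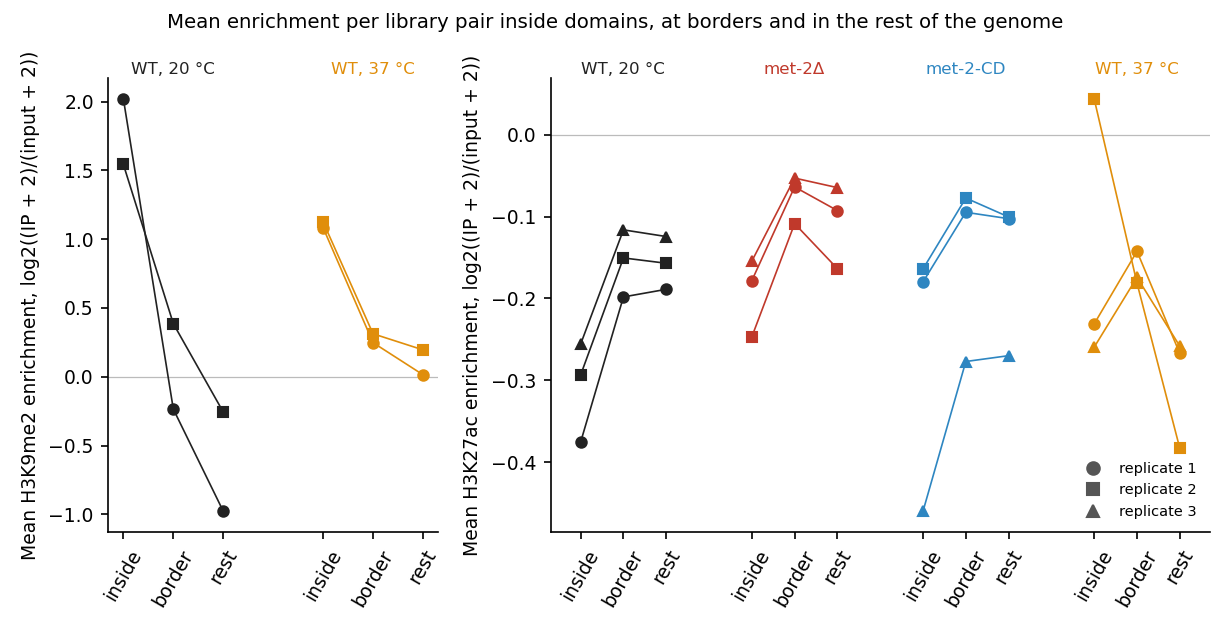
Mean E (vertical axis, log2 of IP over input) of the domain inside, the border windows and the rest of the genome in each library, for H3K9me2 in WT at 20 °C and HS and for H3K27ac in the 4 groups. Each point is 1 pair of IP and input. H3K9me2 border values lie between inside and rest in all 4 pairs, while H3K27ac border values lie above inside in every pair except HS replicate 2, where the inside mean was 0.04 and the border mean -0.18.

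The difference at single domain ends was small beside the variation among ends. Next to the domain end, the border window had the lower H3K27ac E at 45.8%, 46.5% and 45.2% of the 1696 ends in the WT replicates, with a median difference of 0.05 in favour of the border in each. In HS the same share was 50.4%, 67.2% and 50.0%. The border mean in WT was -0.18 at the position next to the domain and -0.12 at the position after it.

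Between the groups, the border level of H3K27ac moved by at most 0.08 on the log2 scale. In met-2Δ the border means were -0.06, -0.11 and -0.05, all above the 3 WT values, and the group exceeded WT by 0.08 (exact permutation test, two-sided, p = 0.1, the smallest that 3 against 3 allows, adjusted over 9 tests p = 0.18). The rest of the genome lay in the same direction, at -0.16 ± 0.03 in WT and -0.11 ± 0.05 in met-2Δ (SD, n = 3 each). Border minus rest exceeded WT by 0.03 (exact permutation p = 0.1), and by 0.01 within the arms (exact permutation p = 0.5). The domain inside had -0.31 ± 0.06 in WT and -0.19 ± 0.05 in met-2Δ (SD, n = 3 each), so the step from inside to border was 0.04 smaller than in WT (exact permutation p = 0.1). With -0.09, -0.08 and -0.28, the met-2-CD border means overlapped those of WT and the difference was 0.01 (exact permutation p = 1). Without replicate 3 the met-2-CD difference was 0.07 (exact permutation p = 0.2). The HS border means of -0.14, -0.18 and -0.17 lay within the WT range (difference -0.01, exact permutation p = 0.7).

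The means of the domain inside and of the rest of the genome differed more between HS and WT than the border mean did. Windows a little further out stayed near WT, with -0.15 in both groups at 3 windows out. At 10 windows out HS had -0.19 against -0.17 in WT. Inside the domains the HS replicates had -0.23, 0.04 and -0.26, a mean of -0.15 ± 0.17 against -0.31 ± 0.06 in WT. The rest of the genome had -0.30 ± 0.07 in HS against -0.16 ± 0.03 in WT (SD, n = 3 each). The HS border therefore stood 0.14 ± 0.06 above the rest of the genome, against 0.00 ± 0.01 in WT, with no overlap between the replicates (difference 0.14, exact permutation p = 0.1, adjusted over 9 tests p = 0.18). Without HS replicate 2 this difference was 0.10 with the same smallest exact p of 0.1. Within the arms, with all replicates, border minus rest was 0.13 ± 0.04 in HS and 0.03 ± 0.01 in WT (SD, n = 3 each). The difference there was 0.11 (exact permutation p = 0.1). The step from inside to border was 0.17 smaller in HS than in WT (exact permutation p = 0.1) and 0.07 smaller without HS replicate 2 (exact permutation p = 0.1).

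**Figure D3:**
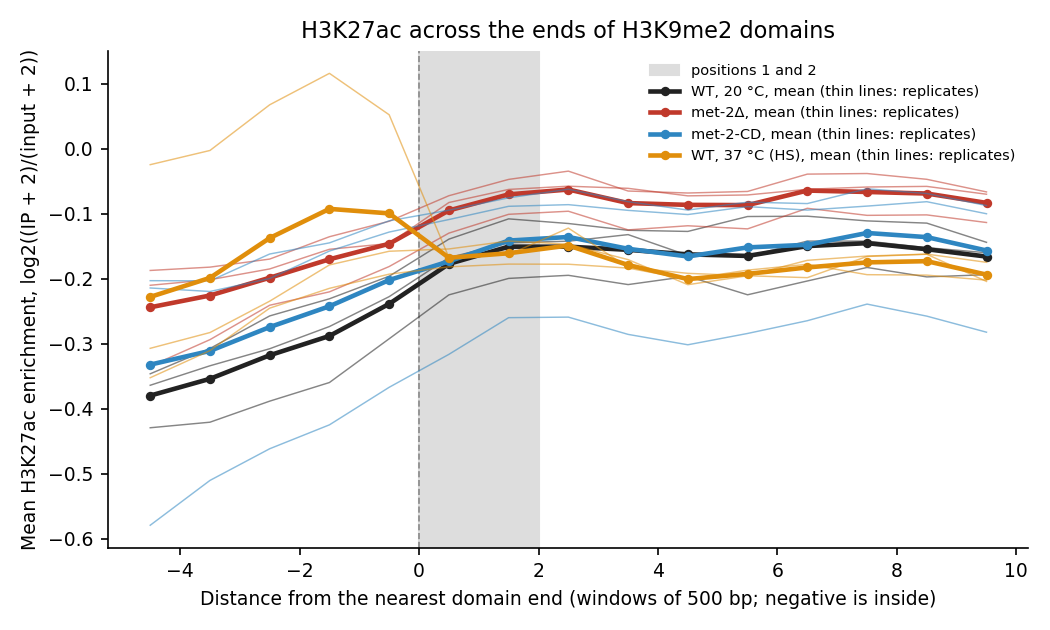
Mean H3K27ac E (vertical axis, log2 of IP over input) against the distance from the domain end in 500-bp windows (horizontal axis, negative inside) for WT, met-2Δ, met-2-CD and HS, with thick lines for the mean of 3 replicates and thin lines for each. All windows at each distance are drawn, including flanking windows with an H3K9me2 E of at least 1. WT, met-2Δ and met-2-CD rise from the inside to the outside, with border means of -0.16, -0.08 and -0.15, whereas HS has similar means inside (-0.15) and at the border (-0.17), with replicate 2 (thin line) far above the other HS replicates inside.

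How borders compared with the rest of the genome depended on the group and on the chromosome. Border minus rest averaged 0.00 in WT, 0.03 in met-2Δ, 0.01 in met-2-CD and 0.14 in HS. The HS pairs thus weighed most in a mean over all groups, and WT alone showed no difference of this kind over the whole genome. Within the autosome arms, a comparison chosen after seeing the data, border minus rest in WT was 0.03 ± 0.01 (SD, n = 3). The WT replicates there had 0.035, 0.024 and 0.029. Over the 12 pairs the border mean exceeded the rest by 0.04, in 10 pairs (exact sign-flip permutation test, two-sided, p = 0.00732, adjusted over 2 tests p = 0.0146). When each of the 6 chromosomes counted equally, an alternative chosen after seeing the data, the mean was -0.01 with 4 of 12 pairs above 0 (exact sign-flip permutation p = 0.487). Within the autosome arms alone, another alternative chosen after seeing the data, it was 0.06 with 12 of 12 pairs above 0 (exact sign-flip permutation p = 0.000488). The call was also lost at a domain threshold of 1.5 (0.015, exact permutation p = 0.657) and with 1 border window per side (0.03, exact permutation p = 0.243). The sign of the difference thus depended on the weight given to each chromosome, and its call on the windows compared. In WT, border windows on IV exceeded the rest of that chromosome by 0.09 ± 0.03 (SD, n = 3) in 3 of 3 pairs. On I, II, III, V and X they were lower in 3 of 3 pairs, by -0.05, -0.04, -0.06, -0.07 and -0.17 on average. Levels at the borders were highest on I (-0.07), III (-0.08) and IV (-0.10), lower on II (-0.15) and lowest on V (-0.37 ± 0.06) and X (-0.38 ± 0.07), and the last 2 did not differ beyond their spread.

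Chromosome IV also stood out in HS. Its border mean was -0.02 ± 0.02 in HS against -0.10 ± 0.01 in WT, while the rest of IV had -0.36 ± 0.09 against -0.19 ± 0.04 (SD, n = 3 each). Borders on IV thus stood 0.34 ± 0.10 above the rest of that chromosome in HS. On the other chromosomes this difference ranged from -0.06 on X to 0.06 on I. The border exceeded the inside on all 6 chromosomes in WT, in 3 of 3 pairs each and by 0.11 (IV) to 0.17 (III). In HS the order was turned on IV in 3 of 3 pairs (-0.13 ± 0.17).

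A minority of borders were strongly acetylated in WT. Of the 2866 border windows, 216 (7.54%) had a mean WT H3K27ac E of at least 1, against 5.8% of all nuclear windows, 5.96% of the rest of the genome and 3.38% of domain windows. In single replicates the border share was 7.90 ± 0.77% (SD, n = 3). Within the arms the shares were 7.81% for borders, 5.79% for the rest and 3.43% for domain windows. By chromosome the border share was above that of the rest on I (9.09% against 8.39%), II (8.04% against 6.73%) and IV (9.54% against 5.49%), and slightly below it on III, V and X. These windows sat at 145 of 1702 domain ends (8.52%) and beside 129 domains, of which 16 had them at both ends.

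Acetylated borders carried less H3K9me2 than the others, with a median E of 0.14 against 0.29 at 20 °C and 0.16 against 0.40 at 37 °C. Position was not held fixed in this comparison. Borders at position 1 had a mean H3K9me2 E of 0.31 at 20 °C and those at position 2 had -0.21. Of all windows at these distances, 6.66% and 7.77% had a WT H3K27ac E of at least 1. The part of position was not tested. The domain end near an acetylated border was often acetylated too. Of the last domain windows at these 145 ends, 74 (51.0%) also had a mean WT H3K27ac E of at least 1, against 5.14% of all last domain windows. In these 74 both marks had an E of at least 1 in the same window of these embryo populations. The 145 ends were picked for a nearby acetylated window, and a direction of spread was not tested.

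The 3 border windows with the highest WT acetylation showed the range of both marks. On chromosome I, the window from 1339996 to 1340495 had a mean WT H3K27ac E of 2.51, with 791, 814 and 715 scaled IP reads in the WT replicates. Its met-2Δ libraries held 640.0, 871 and 566 and its HS libraries 1003, 965 and 987. The window on III from 13622045 to 13622544 had a WT mean of 2.45 and an H3K9me2 E of 0.48 at 20 °C. The last of them, on I from 12508448 to 12508947, had a WT mean of 2.44 and an H3K9me2 E of 0.15. All 3 kept a positive H3K27ac E in each of the 12 pairs.

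The longest domains had unlike borders. The longest, on III from 1163098 to 1189597 (53 windows), had borders on its left with WT H3K27ac E of 0.44 and 0.65 and on its right with -0.14 and -0.35, while its inside had -0.67, -0.39 and -0.44 in the WT replicates. The domain on I from 12516448 to 12531947 (31 windows) ended on its right in 2 acetylated windows with WT H3K27ac E of 1.55 and 1.58 and H3K9me2 E of -0.88 and -0.41, and on its left in windows with -0.56 and -0.19. Inside this domain H3K27ac E was -0.06, -0.14 and -0.22 in WT, 0.17, 0.26 and 0.15 in met-2Δ and 0.37, 0.83 and 0.48 in HS. With 0.08, 0.05 and 0.05 the met-2-CD libraries lay between, and none of these 3 groups overlapped WT. On V, the domain from 18650396 to 18663895 (27 windows) was flanked by windows of low acetylation, from -0.73 to -0.40 in WT.

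Window by window, few borders differed between met-2Δ and WT. The H3K27ac IP counts of 196122 windows were tested by edgeR's quasi-likelihood method with a call at a Benjamini-Hochberg adjusted p under 0.01. By this test, 18 of the 2820 tested border windows (0.638%) were called in met-2Δ, 16 higher and 2 lower, against 0.186% of all windows tested. Among all windows 0.157% were higher and 0.0286% lower, and inside the domains 64 of 6490 (0.986%) were higher and 2 lower. The share was not particular to the borders. Of all windows at a given distance, 0.55% were higher at 1 window out, 0.49% at 3, 0.22% at 4 and 0.65% at 10. In the arms alone 0.453% of borders were higher, against 0.224% of the other windows there. The 16 higher borders had log2 fold changes (log2FC) from 0.74 to 1.495. By share of the borders tested on a chromosome, X came first (4, 2.94%) and I next (6, 0.997%). Lower shares were found on II (3, 0.566%), IV (2, 0.493%) and III (1, 0.143%), and V had 0. At 3 of the 16 the last domain window was also higher, against 0.94% of all last inside windows tested. A higher window lay directly beside 12 of them, and the matching share for a direct neighbour was not computed. Their median H3K9me2 E in WT was 0.53 at 20 °C. The median log2FC of all border windows was 0.09 against 0.04 for all windows.

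The count of 16 was sensitive to single libraries and to scaling. It was 6 under TMM normalization and 10 with DESeq2, while the count of higher windows in the genome went from 308 to 126 and 186. It fell to 7 without WT replicate 3, 8 without met-2Δ replicate 1 and 5 without met-2Δ replicate 2, where the genome had 188, 175 and 109. The 2 lower calls became 0 without WT replicate 2 and 1 without WT replicate 3 or any single met-2Δ replicate.

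The strongest met-2Δ borders were a pair of windows at the left end of the X chromosome. They flank a domain of 6 windows from 123737 to 126736. The window from 123237 to 123736 had 82.4, 88.2 and 83.2 scaled IP reads in WT, and the met-2Δ libraries held 249, 211 and 255. For met-2-CD the values were 108, 112 and 106, and for HS 123, 101 and 99.0. The met-2Δ values also stood far above those of met-2-CD and HS (log2FC against WT 1.495, SE 0.17, edgeR adjusted p = 3.33e-11). Windows named for a call were picked with all replicates outside the WT range, so their separation from WT is built in. Its neighbour from 122737 to 123236 had 98.9, 93.8 and 70.7 in WT and 208, 218 and 254 in met-2Δ (log2FC 1.38, SE 0.18, edgeR adjusted p = 6.39e-09). Inputs were similar, at 116 ± 12 in WT and 131 ± 6.4 in met-2Δ for the first window (SD, n = 3 each). H3K9me2 E of the first window was 0.27 and 0.79 at 20 °C and 0.91 and 0.77 at 37 °C.

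A further met-2Δ border, on II from 1916506 to 1917005, had 112, 175 and 97.7 scaled IP reads in WT and 216, 325 and 230 in met-2Δ (log2FC 1.02, SE 0.17, edgeR adjusted p = 3.18e-05). WT replicate 2 was the highest WT value. The 2 lower windows were weaker evidence. The window on II from 13336957 to 13337456 went from 199, 348 and 218 in WT to 126, 157 and 107 in met-2Δ (log2FC -0.96, SE 0.18, edgeR adjusted p = 3.34e-04), and its input was lower too, 48.9 ± 13.6 against 73.3 ± 7.9 (SD, n = 3 each). The window on III from 11429554 to 11430053 held only 19.0, 27.99 and 26.0 reads in WT and 2.99, 2.62 and 8.93 in met-2Δ (log2FC -2.33, SE 0.51, edgeR adjusted p = 0.00497), with inputs of 18.5 ± 8.3 and 9.33 ± 5.48. The part of the input in these lower calls was not tested.

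In met-2-CD 1 border window was called higher and 0 lower, against 0.0194% of all windows tested in either direction, 0.0138% higher and 0.00561% lower. At an unadjusted p under 0.05, 196 border windows (6.95%) passed in edgeR, against 4.10% of all windows, and DESeq2 called 0 in either direction at the adjusted threshold. The called window was on II from 14166953 to 14167452, with 122, 116 and 136 scaled IP reads in WT, 222, 190.3 and 269 in met-2-CD and 250.5, 266 and 212 in met-2Δ. The choice of the window placed met-2-CD above all WT values. The met-2Δ libraries were above them too, and both comparisons share the WT libraries (met-2-CD log2FC 0.87, SE 0.17, edgeR adjusted p = 0.00558, and met-2Δ log2FC 0.96, SE 0.17, edgeR adjusted p = 9.41e-05). The met-2-CD call was lost when any library except met-2-CD replicate 2 was left out. The number of calls in met-2-CD became 2 without replicate 2.

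**Figure D4:**
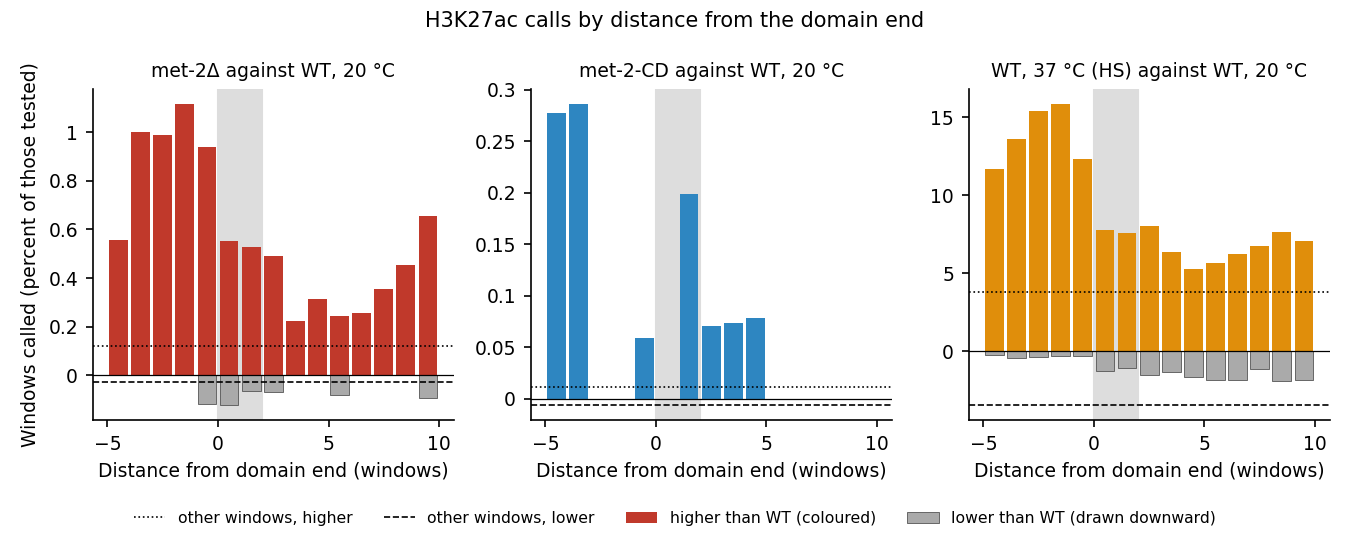
Percent of tested windows called higher in H3K27ac than in WT (vertical axis, edgeR adjusted p under 0.01) against distance from the domain end in 500-bp windows (horizontal axis, negative inside), for met-2Δ, met-2-CD and HS, with windows called lower drawn downward and the rest of the genome as horizontal lines. The panels have different vertical scales. All windows at each distance are counted, including flanking windows with an H3K9me2 E of at least 1. HS reached 12.3% in the last inside window and 7.78% in the first outside against 3.78% of the rest of the genome, and met-2Δ 0.94% and 0.55% against 0.12%.

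Exposure to 37 °C moved far more windows. In HS 245 border windows (8.69%) were called, against 7.49% of all windows tested, so the total share was near the background. The directions were unlike the background, with 209 border windows higher (7.41%, against 4.17% of all windows) and 36 lower (1.28%, against 3.32%). Inside the domains 900 windows (13.9%) were higher and 20 lower. In the arms alone 7.63% of borders were higher, against 5.10% of the other windows there. The 209 higher borders had log2FC from 0.56 to 1.69 with a median of 0.80, and the 36 lower ones from -1.51 to -0.60. Without HS replicate 2 the counts were 137 higher (4.86%, against 2.66% of all windows) and 18 lower. The 209 higher calls also fell to 125 without WT replicate 2 (4.43%, against 2.95% of all windows) and 120 without WT replicate 3 (4.26%, against 2.59%). The 36 lower calls became 13 without WT replicate 2, 11 without WT replicate 3 and 19 without HS replicate 1. All windows gave 3265, 2476 and 4623 lower in these fits, against 6517 with all libraries.

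The direction of the median border in HS depended on the scaling. With nuclear totals the median log2FC was -0.18 over all windows, -0.04 over borders and 0.13 inside the domains. With TMM normalization it was -0.04 over all windows and 0.10 over borders, so the sign at the borders turned while their place above the median of all windows was kept. Of all windows called, 55.6% were higher with nuclear totals and 79.4% with TMM. Among called borders this share was 85.3% and 94.2%.

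Most of the higher HS borders lay near other higher windows. The last domain window was also higher at 140 of the 209, any window of the adjoining domain at 164 (78.5%), and a directly neighbouring window at 180 (86.1%). Of all last inside windows tested, 12.3% were higher. The matching shares for any window of a domain and for a direct neighbour were not computed, and the counts give no direction of change. By distance from the domain end the share of higher windows was 15.9% in the window before last inside, 12.3% in the last, 7.78% in the first outside and 5.27% at 5 windows out, and 7.10% at 10 windows out. Chromosome I had the highest share of higher borders (69, 11.5%), followed by IV (36, 8.87%), and V (19, 4.26%) and X (5) had the lowest shares.

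H3K9me2 in these windows differed by the direction of the H3K27ac call. The 209 higher borders had a median H3K9me2 E of 0.44 at 20 °C and 0.17 at 37 °C, while their median H3K27ac E was 0.04 in WT and 0.93 in HS. For the 36 lower borders the median H3K9me2 E was -0.36 at 20 °C and 0.48 at 37 °C, and for the 2575 borders without a call 0.28 and 0.39. Window by window the higher borders were nearly evenly split, with H3K9me2 E above its 20 °C value in 93 of the 209 (44.5%) and a median difference between 37 °C and 20 °C of -0.07. Of the 36 lower borders 31 (86.1%) were above their 20 °C value, and of those without a call 61.9%. These values are a description over windows chosen by their 20 °C values.

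**Figure D5:**
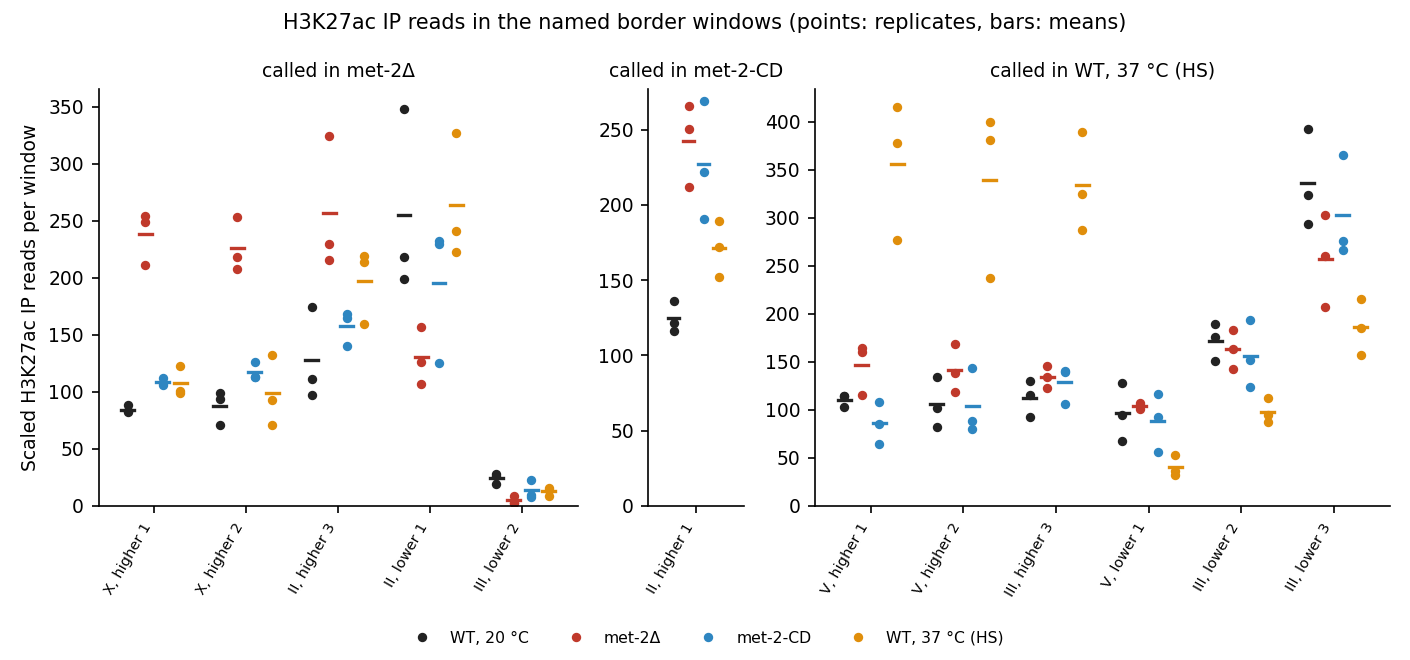
Scaled H3K27ac IP reads per library (vertical axis) in the border windows with the lowest p-values in each comparison with WT (horizontal axis, by chromosome and direction), with 3 points for each of WT, met-2Δ, met-2-CD and HS. In the window on X from 123237 to 123736 the 3 met-2Δ libraries sit at 249, 211 and 255, above all others, and in the window on V from 18696396 to 18696895 the 3 HS libraries sit at 377, 276 and 415.

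The strongest HS borders were again neighbours. On V, the windows from 18696396 to 18696895 and from 18696896 to 18697395 flank the left end of a domain of 6 windows. The first had 103, 115 and 114 scaled IP reads in WT and 377, 276 and 415 in HS (log2FC 1.69, SE 0.17, edgeR adjusted p = 1.54e-15). Its neighbour had 82.4, 102 and 134 in WT and 400, 237 and 381 in HS (log2FC 1.66, SE 0.17, edgeR adjusted p = 1.70e-14). HS replicate 2 was the lowest of the HS libraries in both, and without it the log2FC was 1.84 and 1.86. H3K9me2 in the first window was low at 20 °C, with E of -3.60 and -2.54, and stood at -0.02 and -0.77 at 37 °C.

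The window on III from 9424063 to 9424562 had 115, 92.4 and 130.0 scaled IP reads in WT and 325, 287 and 389 in HS (log2FC 1.56, SE 0.17, edgeR adjusted p = 5.10e-14). The HS libraries also lay above those of met-2Δ and met-2-CD, whose values ran from 106 to 146.

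The border windows called lower in HS had smaller fold changes than the strongest higher ones. On V, the window from 17511901 to 17512400 went from 67.2, 95.2 and 128 in WT to 31.8, 36.1 and 53.5 in HS (log2FC -1.27, SE 0.27, edgeR adjusted p = 2.58e-04). Of the windows on III, the one from 160603 to 161102 went from 151, 189 and 176 to 112, 87.1 and 95.0 (log2FC -0.80, SE 0.17, edgeR adjusted p = 2.94e-04). The other, from 12618049 to 12618548, went from 323, 391.8 and 293 to 157, 215 and 185 (log2FC -0.85, SE 0.19, edgeR adjusted p = 3.76e-04). In all 3 met-2Δ and met-2-CD overlapped WT, while the choice of the windows placed the HS values below every WT value. Both X windows, both higher V windows and the windows on III at 9424063 and 160603 kept their call in 13 of 13 alternative fits, and the other named windows in 5 to 11 of 13.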

How the data were processed

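The authors sequenced paired ends, aligned reads to ce10 through QuasR and deposited counts of uniquely aligned reads in windows of up to 500 bp, without normalization (200551 nuclear and 28 mitochondrial windows). The deposited counts of 32 libraries were used, and no column was left unmapped. Counts were scaled by nuclear totals, separately for each mark. IP and input of the same replicate number were set against each other. Nuclear totals ran from 6671338 to 85333594 reads. Windows carry no gene annotation here, so no gene names or sequences are given.

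The border windows and the lists of named windows were chosen with earlier results of these data known. Named were, per comparison with WT, up to 3 border windows in each direction with the lowest p among those called whose replicates lay outside the WT range. Also named were the 3 with the highest WT H3K27ac E, the borders of the 3 longest domains, the 3 largest drops, and the 3 windows on either side of the threshold. All 12 H3K27ac IP libraries entered 1 edgeR 4.0.16 quasi-likelihood fit with group as the only term (R 4.3.3). Group means were compared by exact permutation tests (9 tests) and differences within pairs by exact sign-flip tests (2 tests). Alternatives, including DESeq2 1.42.0, are given with their effect at the end. Domain calling and the count test were tested on simulated data. Tables were handled with Python 3.11.15, pandas 2.3.3 and numpy 2.4.6, and plots drawn with matplotlib 3.10.9.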

Additional observations from a re-analysis of the deposited data

How the results depend on the processing

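Counts cover uniquely aligned reads, so repeats are thinly sampled, and with 2 H3K9me2 replicates per temperature no test was made. Of the values recomputed under the alternatives for each comparison, 339 were classed as unchanged, 75 moved further, 6 lost the call and 11 changed sign. Tested differences were unchanged if they kept their sign and their side of the p threshold, and counts if they stayed within a fixed fold. With 3 against 3 the exact permutation p cannot go below 0.1, so group differences could only change class by sign. The 339 is therefore no measure of how stable those differences are.

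At a domain threshold of 0.5 there were 1903 domains and 6044 border windows, H3K9me2 E was 1.41 inside at 20 °C and 0.86 inside and 0.0799 at the border at 37 °C, 8.84% of borders were acetylated, and border minus inside in H3K27ac was 0.0624. At a threshold of 1.5 there were 301 domains and 1024 borders, with H3K9me2 E of 2.17 inside and 0.55 at the border at 20 °C and 1.34 and 0.52 at 37 °C. There 5.96% of borders were acetylated, border minus rest was 0.015 (exact permutation p = 0.657) and HS minus WT at borders was 0.0542. With runs of at least 3 windows there were 2310 domains and 7643 borders, H3K9me2 E at 37 °C was 0.99 inside and 0.23 at the border, and border minus inside was 0.0625. With runs of at least 10 there were 159 domains and 527 borders, 1.25 and 0.35 at 37 °C, 8.98% acetylated borders, and met-2-CD minus WT was -0.0029 at borders and -0.0031 for border minus rest.

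With 1 border window per side there were 1651 borders, 0.39 at 37 °C, 6.84% acetylated, border minus rest 0.0277 (exact permutation p = 0.243) and HS minus WT 0.0103, and with 4 per side 4907 borders and 0.20 at 37 °C. Domains from 20 °C replicate 1 alone gave 1.00 inside and 0.23 at the border at 37 °C and a border minus inside of 0.0698. Domains from replicate 2 alone gave 0.96 inside at 37 °C, 10.5% acetylated borders and an HS minus WT of 0.0365. Totals with mitochondrial reads gave 1421 domains, 4595 borders, 1.64 and 0.83 at 37 °C (1.87 and 0.11 at 20 °C) and a border minus inside of 0.0623. The mean input of the group gave 1.14 inside at 37 °C. With the 6 chromosomes weighted equally border minus rest was -0.0109.

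Calls among border windows moved as follows. In met-2Δ the higher count was 6 with TMM (0.213%, against 0.0642% of all windows) and 10 with DESeq2 (0.355%, against 0.0948%). It was 2 with IP and input in one fit (0.0709%, against 0.0102%) and 9 with replicate 2 domains (0.405%, against 0.157%). The lower count was 0 with IP and input in one fit, where all windows gave 2. It was 1 with replicate 2 domains, where all windows gave 56. The met-2-CD higher count was 0 with TMM, DESeq2, one fit or replicate 1 domains, where all windows gave 16, 19, 0 and 27. For HS the higher count was 318 with DESeq2 (11.3%, against 6.80% of all windows) and 53 in one fit (1.88%, against 1.20%). The lower count was 16 with TMM, 22 with DESeq2, 8 in one fit and 19 with only the groups compared. All windows gave 2825, 3357, 1307 and 3077 lower in these fits, against 6517 in the main fit. With replicate 1 domains 62 of 3822 tested borders were lower, and with replicate 2 domains 16 of 2220. The cause was not tested.

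Leaving out single replicates gave 5 to 13 higher and 0 to 2 lower borders in met-2Δ, for met-2-CD 0 to 2 higher ones, and 120 to 179 higher and 11 to 41 lower in HS. All windows gave 109 to 252 higher and 16 to 58 lower in met-2Δ and 4 to 31 higher in met-2-CD. In HS they gave 5071 to 7513 higher and 1660 to 6542 lower. The border difference from WT ranged from -0.031 to 0.069 in met-2-CD and from -0.033 to 0.0084 in HS, and border minus rest in met-2-CD from -0.0015 to 0.014. The reversed values were -0.016 without WT replicate 1, -0.022 without met-2-CD replicate 1, -0.031 and -0.0015 without met-2-CD replicate 2, and 0.0084 (HS) without WT replicate 3.

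Replicate numbers did not pair the samples. Correlations of deviations between same-numbered IP libraries of WT and another group ran from -0.226 to 0.168. With a replicate block, 18 borders were higher and 2 lower in met-2Δ, for met-2-CD the counts were 1 and 0, and 189 and 30 in HS.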

Other observations

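Border windows between 2 domains were a small class of 122. Their H3K9me2 E was -0.01 and 0.76 in the 20 °C replicates and 0.51 and 0.61 at 37 °C, and their H3K27ac E was -0.22 ± 0.09 in WT, -0.14 ± 0.04 in met-2Δ, -0.22 ± 0.14 in met-2-CD and -0.23 ± 0.01 in HS (SD, n = 3 each). Borders beside 1 domain had -0.15 ± 0.04 in WT. The left and right sides of the domains had alike H3K27ac levels in WT, with -0.15 ± 0.04 and -0.17 ± 0.04.

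Borders of longer domains had somewhat less H3K27ac in HS. In HS the mean E was -0.14 ± 0.02 beside domains of 5 or 6 windows, -0.19 ± 0.01 beside those of 7 to 10 and -0.21 ± 0.02 beside those of 11 or more, against -0.15 ± 0.04, -0.16 ± 0.05 and -0.17 ± 0.04 in WT (SD, n = 3 each). The order in HS was not tested.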
